A study of Arabidopsis thaliana with 12 samples.

Results

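SAUR (small auxin-up RNA) genes were followed in Arabidopsis thaliana seedlings in which BRC1 was switched on. The 39 family members were chosen by locus identifier, with earlier results of these data known. Among the 22028 genes listed in at least 1 RNA library were 36 of them. Of the 39, 29 lie in 6 tandem arrays, taken here as neighbours less than 20000 bp apart, and 10 stand alone. BRC1 (BRANCHED1), of the TCP family of transcription factors, restrains the outgrowth of axillary buds, and the question of the series is which genes are under its direct control.

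SAUR genes encode small proteins, and many of the genes are transcribed within minutes of an auxin stimulus. The best studied SAUR proteins bind and inhibit PP2C.D phosphatases, which otherwise keep the proton pumps of the plasma membrane dephosphorylated. Active pumps acidify the wall and favour cell expansion, so these SAUR proteins are known as promoters of growth in hypocotyls, petals and leaves. Brassinosteroid and light signals act on many of the same genes.

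The 12 samples form 4 groups of 3. The induced RNA group is the line GFP:BRC1ind, in which estradiol turns on a GFP-BRC1 fusion, and the RNA group it was set against is the brc1-2 knock-out. Seedlings were 10 days old in both, per the labels. Both carry the label of 10 uM estradiol, given on the plate as 5 ml, with harvest after 5 hours. Anti-GFP ChIP and Input libraries came from the inducible line. No uninduced sample of that line was analysed here, so the added fusion, the missing BRC1 and other differences between the lines cannot be told apart. The promoter behind the inducible construct is not given in the sources used here, and each RNA library came from whole seedlings. The labels do not say that replicates came from separate plates or batches, so p-values measure only the spread between these samples.

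BRC1 itself was listed at 3370, 3421 and 3625 FPKM (fragments corrected for the length of the transcript and the depth of the library) in induced libraries 1, 2 and 3, against 1.34, 1.66 and 2.20 FPKM in the brc1-2 libraries. Depth, derived from the deposited confidence bounds, ran between 33176994 and 53385759 fragments per library. Over all 21038 genes tested, 7.37% were called higher with the fusion induced and 8.86% lower (limma on log2(FPKM + 1), Benjamini-Hochberg adjusted p under 0.05). Leaf markers were abundant in every library, and 1 of 5 was called, LHCB2.1, which was lower. Of 4 root hair markers 3 were called lower (EXPA7, EXPA18 and RSL4), with summed levels of 5.66 to 8.33 FPKM in induced libraries and 27.4 to 57.5 FPKM in brc1-2 libraries. Of 4 root endodermis and stele markers, CASP1 and MYB36 were lower, with sums of 58.3 to 70.0 FPKM in induced libraries and 98.8 to 119 FPKM in brc1-2 libraries. None of the 2 shoot meristem markers tested was called, with sums of 8.49 to 11.1 FPKM in induced libraries and 5.08 to 9.39 FPKM in brc1-2 libraries, and CLV3 was unlisted. RSL4, a root hair regulator, was unlisted in induced libraries 1 and 2 and reached the minimum for testing in brc1-2 libraries only, and its call was lost without any induced library (0.0586 to 0.1274). Every other root marker was listed in all 6 libraries, and the part of these cell types in the SAUR results below was not tested. In whole seedlings, fewer cells of a type and less RNA per cell cannot be told apart.

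SAUR transcripts were lower in the induced line in many members and higher in none. Of the 35 members tested, 17 were lower and 0 were higher, where 8.86% of all tested genes were lower. Array copies made up 26 of the 35 and held 15 of the 17 calls. Such copies may share reads, so the members are not separate counts here or in the shares below. SAUR23 reached the FPKM minimum for testing in brc1-2 libraries only, so its call follows in part from the filter. Without such genes, an alternative added after seeing the data, 16 of 34 members were lower (8.33% of all genes so kept), and with no filter 17 of 36 were (8.28% of all listed genes). Voom on derived fragments also put 17 lower, of which 14 were shared with the first fit, and 0 higher. By voom 11.9% of all tested genes were lower. No member was higher under any other alternative run. The median log2 fold change of the 35 was -1.12, against 0.04 over all tested genes, and 31 of the 35 had a negative value, against 44.4% of all tested genes. In 15 of the 17 the log2 change was -1 or below, a size and call that 2.86% of all tested genes shared. In 23 members every induced library lay below every brc1-2 library, against 18.1% of all tested genes, and in 0 members was the order the other way round. Leaving out induced library 1 reduced the count to 11, where 4.27% of all genes then tested were lower. Leaving out any other single library gave 12 to 14, where 4.45% to 7.10% of all genes then tested were lower.

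**Figure D1:**
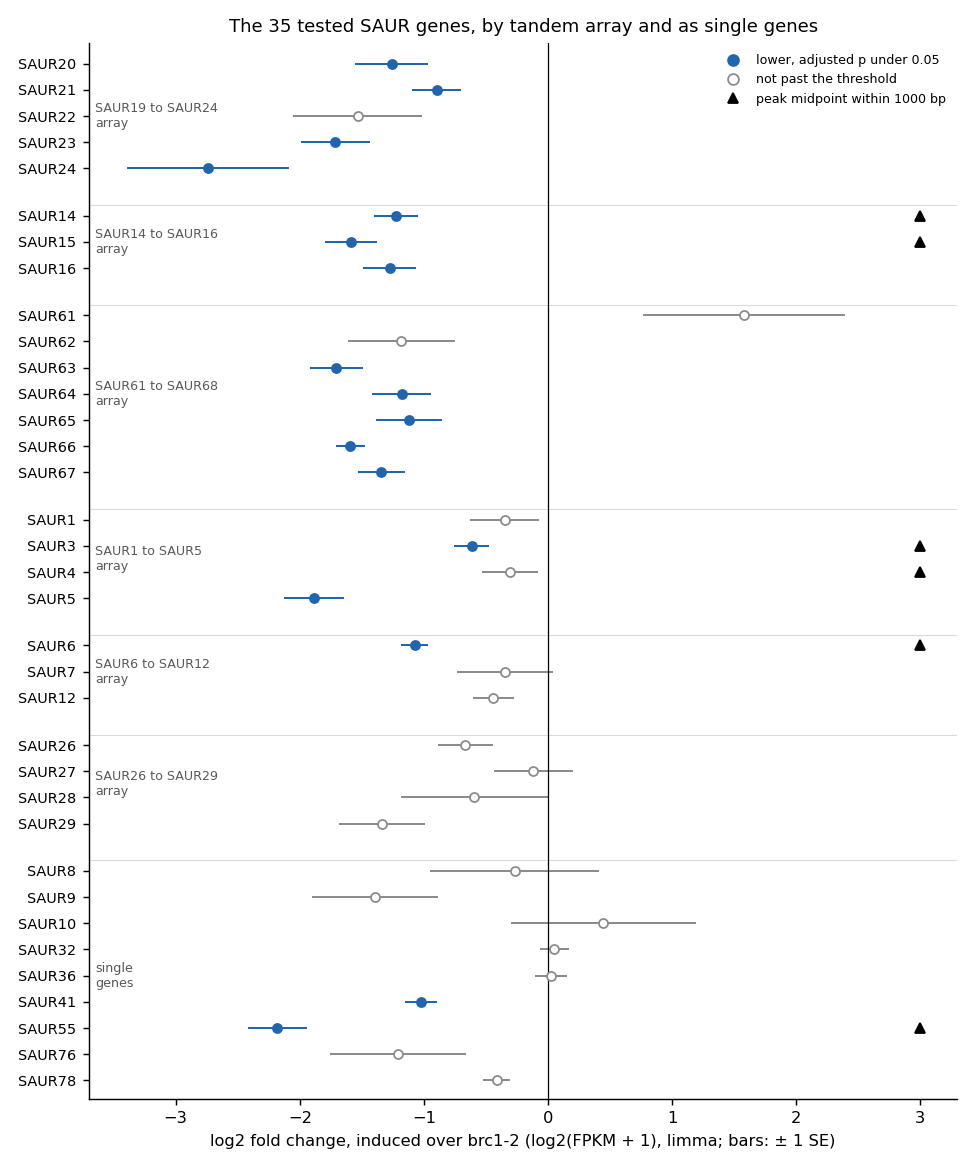
Log2 fold change of the 35 tested SAUR genes, induced over brc1-2, on the x axis, with bars of 1 standard error, grouped by tandem array and with single genes at the bottom. Filled blue points mark the 17 genes past the threshold, all left of 0, and triangles mark genes with a peak midpoint within 1000 bp. SAUR61 is the point farthest to the right, at 1.58, and did not pass the threshold.

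The array members and the single genes are given apart. In the arrays, 15 of 26 tested members were lower, with a median log2 change of -1.18. Among the single genes, 2 of 9 tested members were lower, with a median of -0.41. Over all tested genes 8.86% were lower and the median was 0.04. The difference between array members and single genes was not tested. Neighbouring copies in an array are close relatives in sequence, and how reads that fit several copies were assigned is not given in the sources used here. Values of single copies are uncertain for that reason, so the summed FPKM of each array is given beside them, with no test.

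The SAUR19 to SAUR24 array on chromosome 5 (5962897 to 5984112, TAIR10) had the largest ratio between the lines among the array sums. This subfamily holds the SAUR proteins in which inhibition of PP2C.D phosphatases was worked out. The sum of its 6 members was 4.92, 5.68 and 10.0 FPKM in induced libraries 1, 2 and 3, against 46.2, 23.6 and 26.7 FPKM in brc1-2 libraries 1, 2 and 3. The highest induced library was thus below the lowest brc1-2 library, and the mean in the induced line was 21.4% of that in brc1-2 (6.88 ± 2.76 against 32.2 ± 12.3 FPKM, SD, n = 3 each). These are low levels, resting on 42.9 to 92.4 derived fragments in induced libraries and 154 to 514 in brc1-2 libraries.

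Of the 5 members tested in this array, SAUR20, SAUR21, SAUR23 and SAUR24 were called lower. SAUR21 (AT5G18030) was listed at 3.17, 2.73 and 3.24 FPKM in induced libraries and at 8.95, 5.26 and 5.82 FPKM in brc1-2 libraries. The groups did not overlap, and its level differed by -0.90 on the log2 scale (SE 0.20, limma adjusted p = 0.0302). SAUR20 (AT5G18020) was at 1.75, 2.96 and 1.62 FPKM in induced libraries and at 9.68, 4.53 and 5.62 FPKM in brc1-2 libraries (-1.26 on the log2 scale, SE 0.29, limma adjusted p = 0.0375). Both genes were listed in every library and separated the lines without overlap. Neither call was robust to the removal of a library. SAUR20 missed the threshold without any library but brc1-2 library 2 (limma adjusted p 0.0576 to 0.1205), and SAUR21 missed it without any induced library or brc1-2 library 3 (0.0562 to 0.102).

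SAUR23 (AT5G18060) was unlisted in all 3 induced libraries and was at 2.78, 2.45 and 1.70 FPKM in brc1-2 libraries, on 41, 28 and 21 derived fragments. The smallest piece in the tables held about 10 fragments. Set against a floor of 10 fragments per library, the SAUR23 level was at least 2.75-fold lower in the induced line. Its limma adjusted p of 0.012 is given as a description, since the gene reached the minimum for testing through the brc1-2 libraries alone, and it was not tested without any 1 of them. SAUR24 (AT5G18080) was unlisted in induced libraries 1 and 2 and at 3.88 FPKM in induced library 3, against 14.2, 8.52 and 9.12 FPKM in brc1-2 libraries. With unlisted libraries set to 0 its groups did not overlap (limma adjusted p = 0.0398), but the call was lost without any library but induced library 3 (0.08855 to 0.1216). Of the 4 libraries that listed SAUR24, 3 were of brc1-2, so its call also follows in part from the filter. SAUR22 (AT5G18050) did not pass the threshold, at 0, 0 and 1.29 FPKM in induced libraries against 5.31, 2.88 and 1.28 FPKM in brc1-2 libraries (limma adjusted p = 0.105). SAUR19 (AT5G18010), the founding member of the subfamily, was not tested, since it was listed in fewer than 3 libraries. It was unlisted in every induced library and in brc1-2 library 2, and at 5.35 and 3.16 FPKM in brc1-2 libraries 1 and 3.

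Genes of other families between the SAUR19 to SAUR24 copies did not share their direction. AT5G18040 was higher in the induced line, at 14.2 ± 0.386 FPKM against 9.38 ± 1.22 FPKM in brc1-2 (SD, n = 3 each), a log2 fold change of 0.56 at a limma adjusted p of 0.017. AT5G18065 and DRT101 did not pass the threshold, with log2 changes of 0.42 and 0.03.

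In the SAUR14 to SAUR16 array on chromosome 4 (18124978 to 18131060), all 3 members were lower. Its sum was 34.2, 35.3 and 35.7 FPKM in induced libraries and 120, 78.4 and 75.5 FPKM in brc1-2 libraries. The induced libraries lay close together and well below the brc1-2 libraries, at 38.4% of the brc1-2 mean. SAUR14 (AT4G38840) and SAUR16 are known from seedlings in light, where their levels differ between cotyledons and hypocotyl. SAUR14 was at 22.1, 23.8 and 23.7 FPKM in induced libraries against 73.8, 49.6 and 46.9 FPKM in brc1-2 libraries (log2 change -1.22, SE 0.17, limma adjusted p = 0.0078). SAUR16 (AT4G38860) was at 9.68, 7.56 and 8.89 FPKM in induced libraries against 31.3, 19.5 and 18.3 FPKM in brc1-2 libraries (-1.27, SE 0.21, limma adjusted p = 0.0132). Neither gene overlapped between the lines, and the call of SAUR16 missed the threshold without induced library 2 (0.0545). SAUR15 (AT4G38850), also called SAUR-AC1 and long used as an auxin-inducible marker in Arabidopsis, had the lowest level of the 3. It was at 2.41, 3.88 and 3.09 FPKM in induced libraries and at 14.8, 9.32 and 10.3 FPKM in brc1-2 libraries, again without overlap (-1.59, SE 0.21, limma adjusted p = 0.00607).

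The SAUR61 to SAUR68 array on chromosome 1 (10301152 to 10323189) held 5 lower genes among 7 tested, and SAUR68 (AT1G29490) was unlisted throughout. SAUR66 (AT1G29500) had the smallest adjusted p of the 35 SAUR genes tested, at 4.28, 3.24 and 3.53 FPKM in induced libraries against 14.3, 11.8 and 13.2 FPKM in brc1-2 libraries (log2 change -1.59, SE 0.12, limma adjusted p = 0.00122). SAUR63 (AT1G29440), a promoter of hypocotyl and stamen filament elongation, was at 3.76, 3.19 and 3.83 FPKM in induced libraries against 19.7, 11.1 and 12.4 FPKM in brc1-2 libraries (-1.70, SE 0.21, limma adjusted p = 0.0054). SAUR67 (AT1G29510) was at 3.54, 4.61 and 3.63 FPKM in induced libraries against 15.2, 9.51 and 10.3 FPKM in brc1-2 libraries (-1.34, SE 0.19, limma adjusted p = 0.00755). For these 3 genes the highest induced library was below the lowest brc1-2 library. SAUR64 (AT1G29450) was at 3.98, 5.74 and 3.29 FPKM in induced libraries against 14.8, 9.51 and 9.08 FPKM in brc1-2 libraries (-1.18, limma adjusted p = 0.0244). SAUR65 (AT1G29460) was at 1.74, 1.65 and 1.89 FPKM in induced libraries against 7.77, 3.38 and 4.60 FPKM in brc1-2 libraries (-1.12, limma adjusted p = 0.0394). The groups of both genes were apart, but these calls leaned on single libraries. SAUR64 missed the threshold without induced library 1, induced library 3 or brc1-2 library 2 (0.0556 to 0.0881), and SAUR65 without any library but brc1-2 library 2 (0.0551 to 0.118).

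SAUR62 and SAUR61 did not pass the threshold. SAUR62 (AT1G29430) was at 4.70, 12.2 and 3.24 FPKM in induced libraries against 18.5, 13.5 and 12.1 FPKM in brc1-2 libraries (log2 change -1.18, limma adjusted p = 0.126). The 12.2 FPKM of induced library 2 is a sum of 2 pieces, at 6.39 and 5.80 FPKM. In derived fragments that library was the lowest of its group, with 61, 35 and 79 in induced libraries against 475, 172 and 241 in brc1-2 libraries. SAUR62 was lower by voom on these fragments (-2.20, limma adjusted p = 0.00629), with length-weighted pieces (-1.48, 0.00766) and without induced library 2 (-1.66, 0.0227). SAUR61 (AT1G29420) was listed at 190, 85.5 and 308 FPKM in induced libraries and at 92.7, 111 and 17.1 FPKM in brc1-2 libraries, and the lines overlapped (1.58, SE 0.81, limma adjusted p = 0.251). In each library its FPKM came mainly from a piece of 155 to 372 bp that ended at base 798 or 800 of the transcript, and brc1-2 library 1 also held a piece over bases 41 to 484 at 1.75 FPKM. All pieces summed to 529 derived fragments in the induced libraries and 546 in the brc1-2 libraries. Over 151 of its 800 bp the annotated row overlaps AT1G29418, which was at 253 ± 18.4 FPKM in the induced line and 242 ± 49.3 FPKM in brc1-2. The tables carry no strand, so reads of the 2 genes cannot be told apart there.

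SAUR61 set the sign of the array's FPKM sum. With it, the sum was 219 ± 106 FPKM in the induced line and 144 ± 56.8 FPKM in brc1-2 (SD, n = 3 each), and the libraries overlapped. Without it, an alternative chosen after seeing the data, the sum was 22.0, 30.6 and 19.4 FPKM in induced libraries and 90.3, 58.7 and 61.7 FPKM in brc1-2 libraries. The lines were then fully apart, with the induced mean at 34.2% of the brc1-2 mean. In derived fragments the whole array, SAUR61 included, was at 433, 345 and 593 in induced libraries and at 2236, 846 and 1131 in brc1-2 libraries. Genes of other families inside or beside this array did not pass the threshold, with log2 changes of -0.13 for AT1G29465, 0.03 for AT1G29470, 0.01 for PAI3 and -0.01 for AT1G29520.

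**Figure D2:**
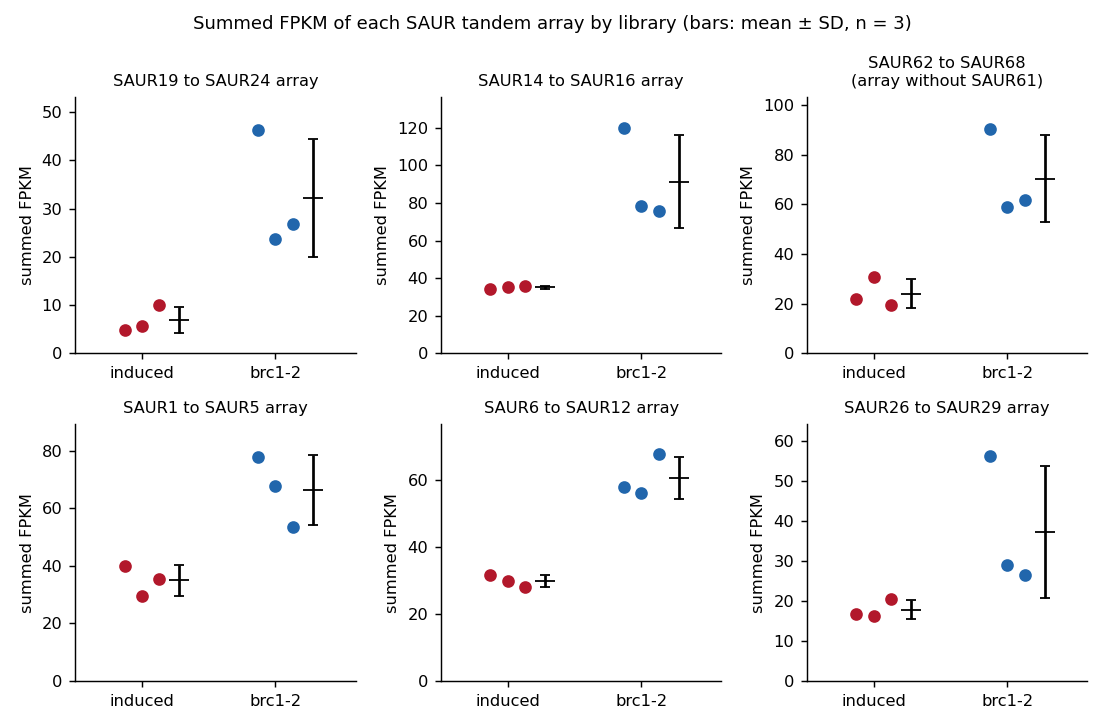
Summed FPKM of each SAUR tandem array (y axes, 1 panel per array) in the 3 induced libraries, in red, and the 3 brc1-2 libraries, in blue, with the mean and SD as black bars. In all 6 panels every induced library is below every brc1-2 library, but the panel of the SAUR61 to SAUR68 array leaves out SAUR61, a choice made after seeing the data. With SAUR61 that sum overlapped between the lines and its mean was higher in the induced line (219 against 144 FPKM).

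The SAUR1 to SAUR5 array on chromosome 4 (16591229 to 16599421) was divided. Its sum was 39.8, 29.3 and 35.5 FPKM in induced libraries and 77.8, 67.8 and 53.5 FPKM in brc1-2 libraries, so that the induced mean was 52.6% of the brc1-2 mean and the lines did not overlap. Most of that gap lay in SAUR5 (AT4G34810), at 6.32, 5.43 and 9.12 FPKM in induced libraries and at 30.8, 34.0 and 20.7 FPKM in brc1-2 libraries (log2 change -1.89, SE 0.24, limma adjusted p = 0.00559). SAUR3 (AT4G34790) was lower by less, at 5.44, 4.73 and 6.43 FPKM in induced libraries against 9.86, 9.50 and 7.61 FPKM in brc1-2 libraries (-0.61, SE 0.14, limma adjusted p = 0.0354). Both genes were apart in the 2 lines, but SAUR3 missed the threshold without induced library 1 or 2 or brc1-2 library 1 or 2 (0.0972 to 0.1098). SAUR4 (AT4G34800) and SAUR1 (AT4G34770) overlapped between the lines. SAUR4 averaged 16.4 ± 3.38 FPKM in the induced line and 20.8 ± 5.69 FPKM in brc1-2, and SAUR1 averaged 6.01 ± 1.58 FPKM in the induced line and 8.10 ± 2.76 FPKM in brc1-2 (limma adjusted p = 0.409 and 0.449). SAUR2 (AT4G34780) was unlisted. AT4G34760 (SAUR50), which borders the array and is not among the 39, was at 42.0, 38.5 and 34.4 FPKM in induced libraries against 33.5, 23.5 and 22.4 FPKM in brc1-2 libraries and did not pass the threshold (0.54, limma adjusted p = 0.0859).

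In the array of SAUR6, SAUR7 and SAUR12 on chromosome 2 (9083906 to 9089813), SAUR6 (AT2G21210) alone was lower among the 3. It was at 24.0, 24.2 and 24.1 FPKM in induced libraries and at 48.0, 47.3 and 61.6 FPKM in brc1-2 libraries, a gap far wider than the spread within either line (log2 change -1.08, SE 0.11, limma adjusted p = 0.00317). SAUR12 (AT2G21220) was at 3.83, 3.45 and 3.01 FPKM in induced libraries against 6.32, 4.45 and 4.40 FPKM in brc1-2 libraries, which did not overlap but missed the threshold (-0.44, limma adjusted p = 0.132). SAUR7 (AT2G21200), whose row overlaps AT2G21195, averaged 2.41 ± 1.39 FPKM in the induced line and 3.25 ± 1.32 FPKM in brc1-2 (limma adjusted p = 0.594). The array sum followed SAUR6, at 29.9 ± 1.75 FPKM in the induced line and 60.6 ± 6.32 FPKM in brc1-2 (SD, n = 3 each).

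The SAUR26 to SAUR29 array on chromosome 3 (976933 to 983751) had no member past the threshold. The SAUR26 subfamily is known for its part in growth at warm temperature. The array sum was 16.7, 16.2 and 20.5 FPKM in induced libraries and 56.3, 29.0 and 26.3 FPKM in brc1-2 libraries, without overlap. SAUR29 (AT3G03820) made up most of this difference, at 6.74, 7.56 and 10.4 FPKM in induced libraries against 38.3, 16.9 and 16.3 FPKM in brc1-2 libraries (log2 change -1.34, SE 0.35, limma adjusted p = 0.0518). The groups of SAUR29 did not overlap, and without brc1-2 library 1, the highest, it passed the threshold (-0.95, limma adjusted p = 0.0352). SAUR26 (AT3G03850) averaged 2.54 ± 0.654 FPKM in the induced line and 4.65 ± 1.26 FPKM in brc1-2, also without overlap (limma adjusted p = 0.103). SAUR27 (AT3G03840) was at 4.68, 5.43 and 4.46 FPKM in induced libraries against 8.73, 5.53 and 3.00 FPKM in brc1-2 libraries, which overlapped (-0.12, limma adjusted p = 0.836). SAUR28 (AT3G03830) was at 3.29, 0 and 3.29 FPKM in induced libraries against 3.32, 3.17 and 2.51 FPKM in brc1-2 libraries (limma adjusted p = 0.544).

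Among the single genes, SAUR55 and SAUR41 were lower. SAUR55 (AT5G50760; chromosome 5, 20644661 to 20645469) was at 2.91, 3.78 and 5.47 FPKM in induced libraries and at 22.1, 16.8 and 26.5 FPKM in brc1-2 libraries. The lines were far apart, by 5.37-fold between means, on 60 to 167 derived fragments in induced libraries and 320 to 714 in brc1-2 libraries (log2 change -2.18, SE 0.24, limma adjusted p = 0.0037). SAUR41 (AT1G16510; chromosome 1, 5644572 to 5645443), which promotes cell expansion when overexpressed, was at 4.72, 6.38 and 4.82 FPKM in induced libraries and at 12.7, 10.6 and 12.0 FPKM in brc1-2 libraries. It too separated the lines without overlap (-1.03, SE 0.13, limma adjusted p = 0.00552).

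The most abundant single gene, SAUR78 (AT1G72430), narrowly missed the threshold. It was at 81.1, 84.9 and 79.5 FPKM in induced libraries and at 109, 94.9 and 126 FPKM in brc1-2 libraries, without overlap (log2 change -0.41, SE 0.11, limma adjusted p = 0.0561). Leaving out brc1-2 library 2, the lowest of its line, put it past the threshold (limma adjusted p = 0.033). SAUR76 (AT5G20820) was at 0, 2.56 and 2.41 FPKM in induced libraries against 3.16, 6.54 and 3.79 FPKM in brc1-2 libraries (limma adjusted p = 0.202). SAUR9 (AT4G36110) was at 0, 0 and 1.63 FPKM in induced libraries against 2.14, 4.70 and 1.68 FPKM in brc1-2 libraries (limma adjusted p = 0.127). Both were lowest in induced libraries without overlap, at levels near the smallest the tables list.

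The other single genes overlapped between the lines. SAUR36 (AT2G45210), a promoter of leaf senescence, averaged 9.23 ± 1.11 FPKM in the induced line and 9.07 ± 1.29 FPKM in brc1-2 (log2 change 0.03, limma adjusted p = 0.918). SAUR32 (AT2G46690), known from the apical hook, averaged 29.5 ± 1.37 FPKM in the induced line and 28.7 ± 4.58 FPKM in brc1-2 (0.05, limma adjusted p = 0.809). SAUR10 (AT2G18010), a promoter of stem elongation, was at 2.83, 2.44 and 4.77 FPKM in induced libraries against 2.87, 0 and 6.78 FPKM in brc1-2 libraries (0.45, limma adjusted p = 0.728). SAUR8 (AT2G16580), whose row overlaps AT2G16575, was at 11.5, 6.27 and 2.93 FPKM in induced libraries against 3.83, 4.95 and 20.7 FPKM in brc1-2 libraries (-0.27, limma adjusted p = 0.826). The 20.7 FPKM includes a piece of 157 bp at 17.7 FPKM on 9.59 fragments. In derived fragments SAUR8 was at 86, 75 and 101 in induced libraries and at 136, 57 and 54 in brc1-2 libraries, which also overlapped. SAUR25 (AT4G13790) was unlisted.

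**Figure D3:**
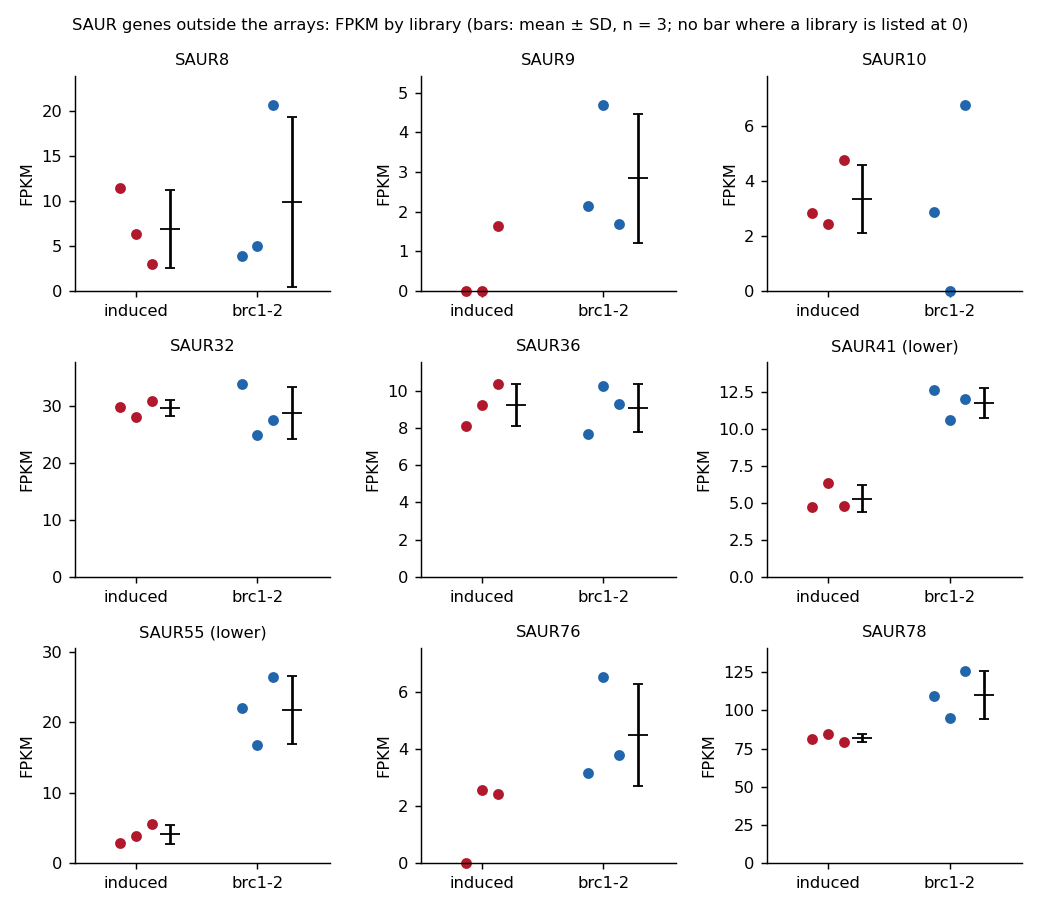
FPKM (y axes) of the 9 tested SAUR genes outside the arrays in the 3 induced libraries, in red, and the 3 brc1-2 libraries, in blue, with the mean and SD as black bars where no library is listed at 0. SAUR41 and SAUR55 are lower in the induced line, SAUR9, SAUR76 and SAUR78 are apart without passing the threshold, and SAUR8, SAUR10, SAUR32 and SAUR36 overlap.

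Binding of the GFP-BRC1 fusion was read from the deposited list of 4227 anti-GFP peaks. A peak midpoint lay within 1000 bp of the annotated row of 6 of the 39 members (15.4%). The share was 12.0% of all nuclear rows and 16.3% of tested genes with a nuclear row. Of the 17 lower members, 5 had such a peak (29.4%), as did 15.8% of all lower genes with a row. Of the 22 other members, SAUR4 had a peak. Within 1000 bp, 12 of the 17 lower members had no peak. The share of members with a peak depended on the distance, since within 3000 bp it was 41.0% (16 of 39), against 21.4% of all nuclear rows. At that distance neighbours in an array shared peaks, so the members are not separate counts. The same peak (chromosome 4, 16593836 to 16594431), for example, was counted for SAUR1, SAUR2, SAUR3 and SAUR4.

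SAUR55, the single gene with the most negative fold change, had the peak nearest to a row. The peak (chromosome 5, 20644389 to 20644668) reached into its lower-coordinate end, with the midpoint 132.5 bp outside the row. In the SAUR14 to SAUR16 array, 1 peak (chromosome 4, 18125585 to 18126076) filled much of the gap between SAUR14 and SAUR15, 271.5 bp from SAUR14 and 340.5 bp from SAUR15. This peak was also within 1000 bp of the kinase gene CRK26, whose level did not pass the threshold (log2 change -0.45, limma adjusted p = 0.411). A second peak (18126959 to 18127630) lay 614.5 bp from SAUR15 on its other side. No strand is given, so that upstream and downstream could not be told apart.

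SAUR6 had a peak 246 bp from its row (chromosome 2, 9086008 to 9086302). In the SAUR1 to SAUR5 array the peaks were not beside the member that differed most. They lay 335.5 bp from SAUR3 (chromosome 4, 16593836 to 16594431) and 453.5 bp from SAUR4 (16596219 to 16596594), while the nearest peak to SAUR5 was 2697.5 bp away. The SAUR19 to SAUR24, SAUR26 to SAUR29 and SAUR61 to SAUR68 arrays had no peak within 1000 bp of any member. In the SAUR19 to SAUR24 array the nearest peak (chromosome 5, 5972263 to 5972557) was 2157 bp from SAUR22 and stood beside AT5G18040, the gene that was higher. In the SAUR61 to SAUR68 array the nearest peak was 30838 bp from SAUR67. No peak midpoint fell inside the row of any of the 39 members, against 1.79% of all rows.

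**Figure D4:**
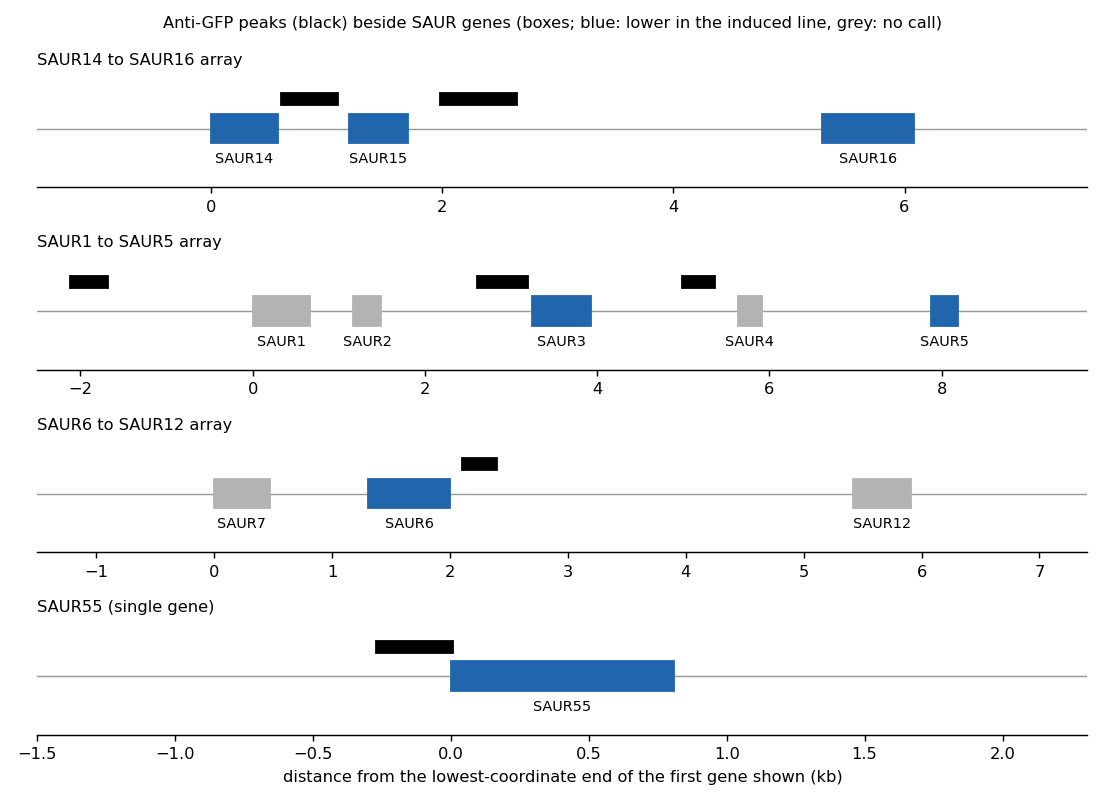
Maps of the 3 arrays and the single gene with an anti-GFP peak within 1000 bp, drawn to scale by distance in kb from the lowest-coordinate end of the first SAUR gene shown (x axes). Black bars are peaks and boxes are SAUR rows, blue where lower in the induced line and grey where not called, and the peaks beside SAUR genes lie between rows or over the very edge of SAUR55.

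The gene table names 41 SAUR genes outside the 39, by symbol or synonym. They include AT5G01830, which has SAUR21 as a synonym. That name belongs to AT5G18030 among the 39, so the match rests on the synonym alone and its place in the family is uncertain. Of the 41, 26 could be tested. Of these, 2 were higher (7.69%) and 3 lower (11.5%), shares near the 7.37% and 8.86% of all tested genes, with a median log2 change of -0.19. SAUR51 (AT1G75580) was higher, at 21.7, 23.2 and 23.5 FPKM in induced libraries against 6.58, 5.12 and 3.16 FPKM in brc1-2 libraries (2.04, SE 0.22, limma adjusted p = 0.00345). SAUR77 (AT1G17345), which had a peak within 1000 bp, was also higher, at 6.76, 5.58 and 8.44 FPKM in induced libraries against 2.33, 1.59 and 1.59 FPKM in brc1-2 libraries (1.48, limma adjusted p = 0.0055). Neither overlapped between the lines. The genes called lower were SAUR37 (7.55 ± 1.35 FPKM in the induced line, 25.3 ± 6.93 FPKM in brc1-2), SAUR59 (6.10 ± 0.562 FPKM in the induced line, 14.2 ± 1.91 FPKM in brc1-2) and SAUR38 (limma adjusted p = 0.00586, 0.00379 and 0.0337). SAUR38 reached the minimum for testing in brc1-2 libraries only, so its call follows in part from the filter, and it was lost without induced library 1 or 2 (0.1015 and 0.0941).

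Calls among the PP2C.D phosphatase and proton pump genes ran in both directions, and only their transcripts were measured. Of 9 PP2C.D phosphatase genes, 1 was higher and 2 were lower, with a median log2 change of 0.10. Over all tested genes 7.37% were higher and 8.86% lower. AT5G02760 (PP2C.D1) was lower, at 10.5 ± 1.20 FPKM in the induced line and 25.3 ± 6.53 FPKM in brc1-2 (limma adjusted p = 0.0109). AT5G06750 was lower and AT4G38520 was higher by less, with log2 changes of -0.35 and 0.41. Those calls did not hold without induced library 1 (limma adjusted p = 0.0636 and 0.078) or induced library 2 (0.0533 and 0.0681), and AT5G06750 also not without induced library 3 (0.0628) and AT4G38520 not without brc1-2 library 1 (0.0549).

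Of 10 plasma membrane proton pump genes tested, 2 were called higher and 2 lower, against 7.37% and 8.86% of all tested genes. AHA2 (HA2 in the gene table), a main pump of seedlings, was at 228, 193 and 269 FPKM in induced libraries and at 509, 511 and 618 FPKM in brc1-2 libraries, with no overlap (log2 change -1.25, SE 0.15, limma adjusted p = 0.0047). AHA11 (HA11) ran the other way, at 51.7, 38.5 and 49.9 FPKM in induced libraries against 17.0, 20.1 and 15.0 FPKM in brc1-2 libraries (1.37, SE 0.15, limma adjusted p = 0.00384). Each of these 2 genes had a peak within 1000 bp. AHA3 (HA3) was lower by less (-0.44, limma adjusted p = 0.0145, and 0.0518 without induced library 1). AHA9 (HA9) was at 1.04, 4.81 and 2.65 FPKM in induced libraries and listed at 0 in every brc1-2 library (limma adjusted p = 0.0393, lost without any brc1-2 library at 0.0877 to 0.096). It reached the minimum for testing in induced libraries only, so its call follows in part from the filter, and without it 1 pump gene was higher. Because AHA2 is abundant, the summed FPKM of the pump genes was 486 to 569 in induced libraries and 808 to 917 in brc1-2 libraries.

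Few genes that act before SAUR transcription passed the threshold. Of 6 auxin receptor genes AFB3 was lower (16.6 ± 0.106 FPKM in the induced line, 20.1 ± 0.883 FPKM in brc1-2; limma adjusted p = 0.034), and of 5 growth factors of the BZR and PIF families BES1 was lower (68.6 ± 3.41 FPKM in the induced line, 87.6 ± 4.27 FPKM in brc1-2; limma adjusted p = 0.0228). Both calls were lost without any library but brc1-2 library 3, at 0.0879 to 0.1159 for AFB3 and 0.0654 to 0.0807 for BES1. None of 5 activating auxin response factor genes passed the threshold. In these 3 lists, log2 changes without a call ran from -0.45 (the receptor gene GRH1) to 0.91 (AFB4, SE 1.26), against -0.26 for AFB3. A missing call is thus not a sign of equal levels. Over these 5 pathway lists together, 3 of 35 tested genes were called higher (8.57%) and 6 lower (17.1%), against 7.37% and 8.86% of all tested genes, or 2 higher without AHA9. The higher count was 1 without induced library 1 or 2, and the lower count was 2 without induced library 1 and 3 without induced library 3.

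**Figure D5:**
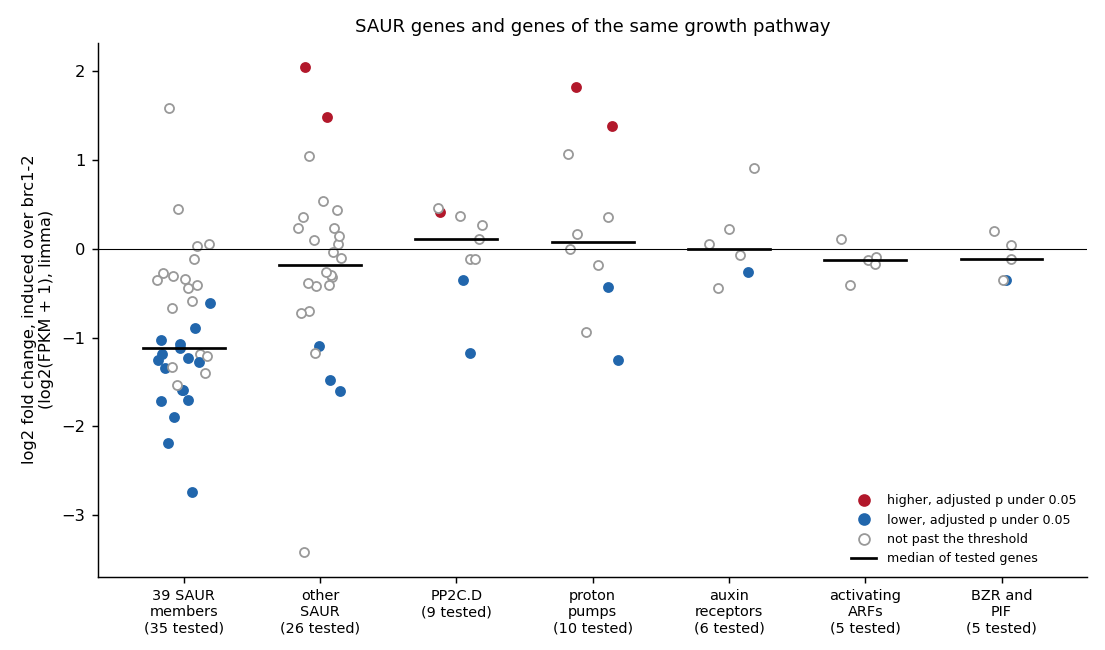
Log2 fold change (y axis), induced over brc1-2, of each tested gene in the 39 SAUR genes, the other SAUR genes and 5 lists of the same growth pathway, with red for higher, blue for lower and open points for no call. Black lines are medians of tested genes, at -1.12 for the 39 SAUR genes, -0.19 for the other SAUR genes and between -0.12 and 0.10 for the 5 pathway lists.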

How the data were processed

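The authors deposited FPKM tables of 6 RNA libraries with confidence bounds, in Cufflinks layout per the file headers, and a list of peak positions common to anti-GFP libraries 1 and 2 per its name. The submitters' processing notes name TAIR10, Bowtie, Bowtie2, TopHat, Cuffdiff and MACS2, without roles or settings. Other ChIP and Input libraries, and promoter sequences, were not analysed here.

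Positive FPKM stood on contigs named by transcript. FPKM was summed per gene, and a gene without a piece was set to 0. Annotated chromosome rows gave positions (1-based, no strand). Fragments were derived from the confidence bounds and cover counting error only, and the smallest piece held 9.6. Genes with FPKM of at least 1 in at least 3 libraries were fitted as log2(FPKM + 1) with limma 3.58.1 (eBayes with trend) in R 4.3.3, without covariates. The pseudocount of 1 understates changes of low genes. P-values were adjusted over 21038 genes at a threshold of 0.05. An exact permutation test of 3 against 3 cannot go below p = 0.1.

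Members and lists were chosen with earlier results of these data known. All members are named, with values for those past the threshold, with a peak or outside arrays, for the extremes of each array, and for genes of the other lists past the threshold. Gene names came from a RefSeq table of TAIR10.1, which gives AT1G29510 as SAUR68. Alternatives covered pseudocount, filter, summing of pieces, scaling, voom, replicate block, each library left out, and peak distance, overlap and width.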

Additional observations from a re-analysis of the deposited data

How the results depend on the processing

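Leaving out each library in turn gave 1609 to 2827 genes changed among all tested against 3413 with all libraries (716 to 1354 higher against 1550, 893 to 1473 lower against 1863), and 11 to 14 SAUR genes lower against 17. Other settings gave 13 to 20 lower, from the replicate block (7.92% of all tested genes lower) to length-weighted pieces (10.1%). Without the 3 genes whose rows overlap another, the count was 17, where 8.86% of all tested genes were lower in the main fit. It was 15 of 28 among members listed in all 6 libraries. Without SAUR23, which reached the FPKM minimum in brc1-2 only, it was 16 of 34 (8.33% of all genes kept by that rule). These 3 alternatives were chosen after seeing the data. SAUR23 was not tested without any 1 brc1-2 library. Lower calls of SAUR5, SAUR6, SAUR14, SAUR15, SAUR41, SAUR55, SAUR63, SAUR66 and SAUR67, 9 in all, held under all 14 alternatives. Same-numbered libraries correlated in their deviations at 0.082, 0.06 and 0.193, which neither shows pairing nor excludes it. Induced library 1 correlated best with brc1-2 library 2 (0.145), and induced libraries 2 and 3 with the brc1-2 library of the same number. The fit with a replicate block called 2989 genes (1322 higher, 1667 lower) and 13 SAUR genes lower, without SAUR3, SAUR20, SAUR24 and SAUR65. Members with a peak numbered 0 with midpoints inside the row, 16 within 3000 bp (41.0%, against 21.4% of all rows) and 3 with peaks at or above the median width, against 6. Within 3000 bp, neighbours in an array shared peaks. The log2 ratio of the SAUR6 to SAUR12 array sum was -0.84 in derived fragments scaled to depth, against -1.02 in FPKM. That of the SAUR61 to SAUR68 array was -1.48 in such fragments and -1.55 without SAUR61, against 0.60. Pathway lists held 1 to 4 higher and 2 to 7 lower genes with a library left out, against 3 and 6.

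Of 476 comparisons over the 35 tested genes, 10 turned the direction, all in genes without a call, and their cause was not tested. With voom SAUR8 was at 0.23 and SAUR32 at -0.0094. With a library left out SAUR8 ran from -0.68 to 0.40, SAUR10 from -0.37 to 1.11, SAUR36 from -0.078 to 0.11, SAUR32 from -0.043 to 0.17, SAUR28 from -0.94 to 0.11 and SAUR27 from -0.45 to 0.19. An unlisted gene may have held up to about 10 fragments, which limits the tested genes not listed in every library (SAUR9, SAUR10, SAUR22, SAUR23, SAUR24, SAUR28 and SAUR76).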
